A study of Mus musculus with 2 samples.

Results

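Gfi1, Gfi1b and the genes of the corepressor complex that both proteins use were examined for occupancy by the transcription factor Myb in mouse bone marrow progenitors. The members were the peaks of the Myb ChIP-Seq list whose summit, the base with the highest pileup, lay in the body of Gfi1, Gfi1b, Kdm1a, Rcor1, Hdac1 or Hdac2 or within 50 kb of it, by the GENCODE vM21 annotation of mm10. Of 25793 peaks in all, 35 met this rule, with 8 at Gfi1, 13 at Gfi1b, 4 at Kdm1a, 7 at Rcor1, 2 at Hdac1 and 1 at Hdac2. Chromatin came from Lin- (lineage-negative) cells of the bone marrow of WT mice, which are depleted of mature blood cells, and was precipitated with an antibody against Myb or with rabbit IgG. By the methods of the study, WT mice were Ep300 fl/fl animals of the C57BL/6 background without a Cre transgene, and they received poly(I:C), an inducer of interferon, as young adults like the mice with Cre. Neither the labels nor the Myb ChIP-Seq method gives the treatment or the age at collection for these libraries. There were 2 samples, with 1 library of each kind, so no value below has a replicate. IgG served the authors as the control in peak calling and has no values of its own here. The list holds binding and no expression, so the labelled cell type could not be checked against marker genes.

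Gfi1 and Gfi1b are closely related zinc finger repressors of hematopoiesis, and Gfi1 is best known in stem cells, lymphoid cells and granulocytes, whereas Gfi1b is best known in erythroid cells and megakaryocytes. At their N-terminus, both carry a short SNAG domain that docks onto the histone demethylase LSD1, the product of Kdm1a. LSD1 is held by the scaffold CoREST, encoded by Rcor1, together with the histone deacetylases encoded by Hdac1 and Hdac2, and this complex removes active marks from chromatin. Myb is a transcription factor of immature blood cells that binds the core AAC and uses the coactivator p300.

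The sequences below are those on which the description turns. They are the highest summit at Gfi1, the only Gfi1 summit with a Myb motif, the 3 Gfi1b summits that held a Myb motif beside a GATA motif, the only corepressor summit with a Myb motif, and, as the weakest call, the summit at the Kdm1a start site. Each is the 101 bp of the plus strand of mm10 centered on the summit, 5′ to 3′. Capitals mark matches on either strand to the Myb motif (CAACTG or CAACGG, where the first base may also be T) or to the GATA motif (AGATAA or AGATAG, where the first base may also be T).
Gfi1, 33.4 kb upstream, chr5:107759347-107759447: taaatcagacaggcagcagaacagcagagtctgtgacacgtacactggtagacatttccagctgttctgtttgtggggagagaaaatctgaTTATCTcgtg
Gfi1, 23.7 kb upstream, chr5:107749661-107749761: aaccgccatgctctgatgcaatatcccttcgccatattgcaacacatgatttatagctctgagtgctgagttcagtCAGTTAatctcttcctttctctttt
Gfi1b, 19.6 kb downstream, chr2:28602313-28602413: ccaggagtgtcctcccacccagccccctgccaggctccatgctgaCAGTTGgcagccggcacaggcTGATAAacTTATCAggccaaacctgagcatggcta
Gfi1b, 23.8 kb downstream, chr2:28598108-28598208: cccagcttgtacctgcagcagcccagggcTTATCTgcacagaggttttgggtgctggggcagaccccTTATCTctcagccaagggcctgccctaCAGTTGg
Gfi1b, 25.7 kb downstream, chr2:28596187-28596287: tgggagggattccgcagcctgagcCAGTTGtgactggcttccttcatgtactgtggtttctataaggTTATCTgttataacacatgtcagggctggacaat
Rcor1, 197 bp upstream, chr12:111039104-111039204: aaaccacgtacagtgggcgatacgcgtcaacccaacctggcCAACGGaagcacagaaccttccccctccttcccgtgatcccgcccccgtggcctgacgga
Kdm1a, 38 bp upstream, chr4:136602711-136602811: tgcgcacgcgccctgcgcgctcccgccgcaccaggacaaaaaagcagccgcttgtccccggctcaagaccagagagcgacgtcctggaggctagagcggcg

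All 6 genes had at least 1 peak in this window, beside 68.7% of 21938 protein-coding genes, and all 6 had a summit within 3 kb of one of their own annotated start sites, beside 39.9% of protein-coding genes. The only such call at Kdm1a had a fold enrichment of 1.90 and q = 0.88, so it does not show occupancy there. Annotated start sites ran from 2 at Rcor1 to 9 at Kdm1a. More start sites give more chances of a promoter peak. Gfi1b had the most peaks of the 6 genes, and Gfi1 and Rcor1 had nearly equal numbers, 8 and 7. Gfi1 held 7.31 peaks per 100 kb of window and Gfi1b 11.6, whereas the median protein-coding gene held 2 peaks in all and 1.52 per 100 kb. At least 8 peaks, as at Gfi1, were found at 12.7% of protein-coding genes, and at least 13, as at Gfi1b, at 3.4%. At least 7 peaks, as at Rcor1, were found at 16.6%. The order of Gfi1 and Rcor1 turned with the window, with 9 peaks at Gfi1 and 12 at Rcor1 within 100 kb of the gene, and 2 and 4 within 10 kb. Rcor1 had 3.96 peaks per 100 kb, Kdm1a 2.63, Hdac1 1.58 and Hdac2 0.785, and 22.9%, 35.5%, 49.2% and 62.2% of genes were at least as dense, so that Hdac1 and Hdac2 stood near the middle of the genome or below it.

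**Figure D1:**
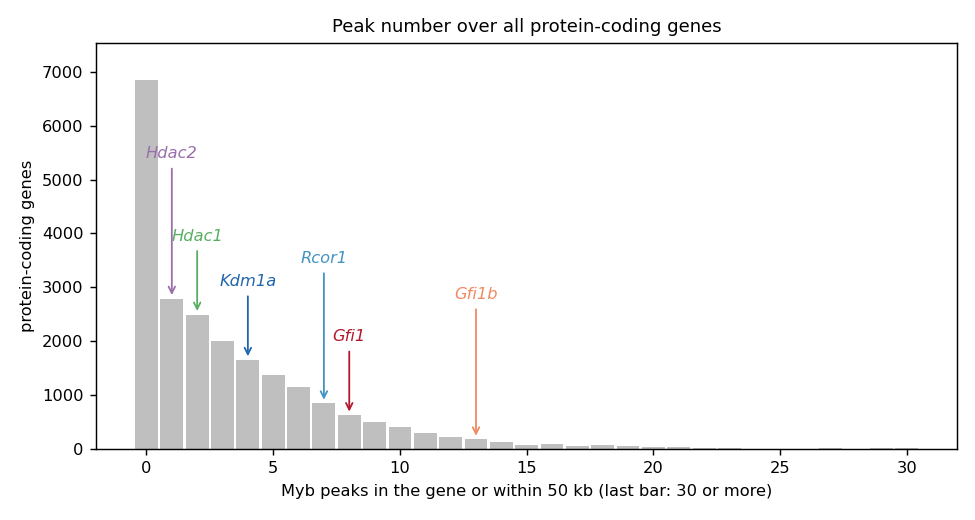
Number of Myb peaks in the gene body or within 50 kb (x axis) against the number of protein-coding genes with that many (y axis); arrows mark the 6 genes. Gfi1b, with 13 peaks, Gfi1, with 8, and Rcor1, with 7, lie to the right of the upper quartile of 5 peaks. Kdm1a, Hdac1 and Hdac2 lie at 4, 2 and 1.

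Fold enrichment, the ratio of the Myb pileup at a summit to its local background after 1 is added to each, had a median of 4.45 over the 35 peaks (range 1.90 to 15.2), beside 4.51 over the whole list. Of the 35, 9 or 25.7% (95% exact binomial interval 12.5 to 43.3) lay in the top quartile of fold enrichment, at 5.95 or more, beside 25.1% of all peaks. The 21 peaks at Gfi1 and Gfi1b had a median of 4.94, with 7 in the top quartile, or 33.3% (14.6 to 57.0). The 14 peaks at the 4 corepressor genes had a median of 3.86, with 2 in the top quartile, or 14.3% (1.78 to 42.8). These intervals overlap and hold the share of the whole list. They treat peaks as independent, although the peaks come from a few genes in 1 library and many are neighbors. A difference in strength between repressor and corepressor loci was therefore not tested. By position, 20 of the 35 lay within 3 kb of a start site of any gene, 57.1% beside 57.6% of all peaks, and 10 of these were at a start site of a member. Of the others, 10 were in introns, 3 intergenic, 1 in an exon and 1 in a UTR. The nearest protein-coding start was that of a member for 22 peaks and of a neighbor for 13. The median width was 591 bp, beside 577 bp over all peaks.

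Most of the strong peaks at the repressor genes lay far from their start sites. None of the 4 Gfi1 and Gfi1b peaks within 3 kb of an own start site was in the top quartile (95% interval up to 60.2%), and their median fold enrichment was 4.40. Of the 17 others, 7 were in the top quartile, or 41.2% (18.4 to 67.1), with a median of 5.44. Over all peaks the share was 25.1% and the median 4.51. The 17 include summits 57 bp from the start of Gtf3c5 and 66 bp from that of Tsc1. The intervals of the near and far peaks overlap, and both hold the share of all peaks. The count of 0 rests on the 3 kb limit, since a Gfi1b intron peak of the top quartile, with a fold enrichment of 8.06, lay 3067 bp from the nearest Gfi1b start.

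**Figure D2:**
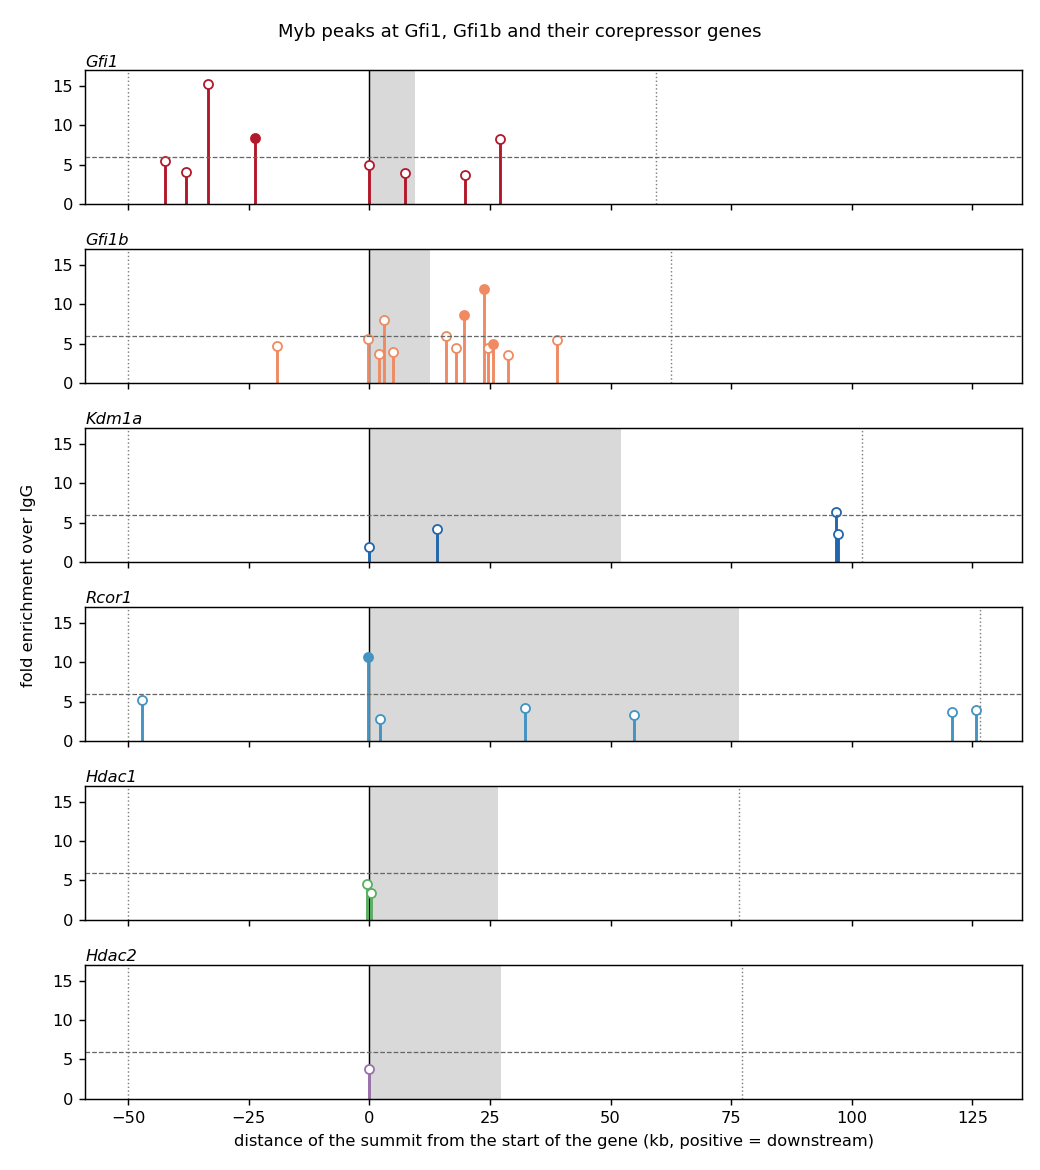
Fold enrichment over IgG (y axis) of each peak against the distance of its summit from the start of the gene in kb (x axis, positive is downstream); gray is the gene body, dotted lines are the ends of the window, the dashed line is the upper quartile of all peaks (5.95), and filled circles hold a Myb motif within 50 bp of the summit. The highest peaks at Gfi1 stand upstream of the gene and those at Gfi1b downstream of it, whereas the highest peak at Rcor1 is at the start site and Hdac1 and Hdac2 have none elsewhere.

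Gfi1 (ENSMUSG00000029275.18, chr5:107716657-107726036, minus strand) held the highest peak of the 35. It lay 33.4 kb upstream of the gene (chr5:107758747-107759997), in an intron of the neighbor Evi5, a GTPase-activating protein gene, with a fold enrichment of 15.2, which ranked 210 in the whole list. There were 57 reads at its summit (95% Poisson interval 43.2 to 73.9) over a background that corresponds to 2.54. Of protein-coding genes, 2.49% had a peak at least as strong in their window. A second Evi5 intron peak, 23.7 kb upstream (chr5:107749047-107750295), had nearly as many reads, 53 (39.7 to 69.3), but over a background of 5.20, so that its fold enrichment was 8.36. The read intervals of the pair overlap, and their order in fold enrichment came with the difference in background.

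The Gfi1 peak at 27.2 kb downstream (chr5:107698427-107699528) was in an exon of the noncoding RNA gene 4930428O21Rik and had a fold enrichment of 8.28 and 31 reads (21.1 to 44.0). At the start site itself, 118 bp upstream (chr5:107725886-107726831), 30 reads (20.2 to 42.8) stood over a background of 5.07, a fold enrichment of 4.92. The remaining 4 peaks were at 7.5 kb and 19.9 kb downstream and at 38.0 kb and 42.4 kb upstream, with fold enrichments between 3.67 and 5.46 and between 12 and 20 reads. Gfi1 therefore had 1 peak in its own body, 1 at its start site and 4 in introns of Evi5, and for the 2 farthest of those 4 the nearest protein-coding start site was that of Evi5.

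Gfi1b (ENSMUSG00000026815.14, chr2:28609450-28621982, minus strand) had 7 of its 13 peaks in a run behind the 3′ end of the gene. These 7 peaks fell within 13.4 kb, between the gene and Gtf3c5, which encodes a subunit of the RNA polymerase III factor TFIIIC. They carried 198 of the 354 reads counted at Gfi1b summits. The median Gfi1b peak had 4 other summits within 10 kb, beside a median of 1 over all peaks, and 4 of the Gfi1b peaks had 6, a density reached by 5.04% of all peaks.

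In this run, the peak 23.8 kb downstream of the start site (chr2:28597672-28599851) was the highest in fold enrichment, 12.0, with 48 reads (35.4 to 63.6) over a background of 2.81. The peak 19.6 kb downstream (chr2:28601820-28602767) had the most reads of all 35, 66 (51.0 to 84.0), over a background of 6.50, a fold enrichment of 8.63. The read intervals of these summits overlap, and which is called the stronger depends on the measure, since the −log10 q-values, 27.3 and 28.3, stood in the opposite order. The peak 15.9 kb downstream was in the top quartile with a fold enrichment of 6.03 on only 18 reads (10.7 to 28.4). The others, at 18.0, 24.6, 25.7 and 28.8 kb, had fold enrichments between 3.52 and 4.94. For the 4 peaks from 23.8 kb to 28.8 kb, the nearest protein-coding start was that of Gtf3c5. Of the 7, 4 counted as promoter peaks by distance only because a small RNA gene is annotated nearby, the snRNA gene Gm22675 for 3 and the miRNA gene Gm22824 for 1.

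Within Gfi1b, an intron peak 3.1 kb from the start (chr2:28618657-28619653) had 48 reads (35.4 to 63.6) and a fold enrichment of 8.06. Peaks within 3 kb of a Gfi1b start site were weaker. The one 196 bp upstream (chr2:28621681-28622637) had 21 reads and a fold enrichment of 5.56, and those at 2.0 kb and 4.9 kb, near starts of annotated Gfi1b transcripts, had 3.66 and 3.89. The last 2 peaks of the window belonged by position to other genes. One was 57 bp from the start of Gtf3c5 (fold enrichment 5.44, 27 reads) and the other 66 bp from the start of Tsc1, a gene of the tuberous sclerosis complex (4.67, 23 reads).

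**Figure D3:**
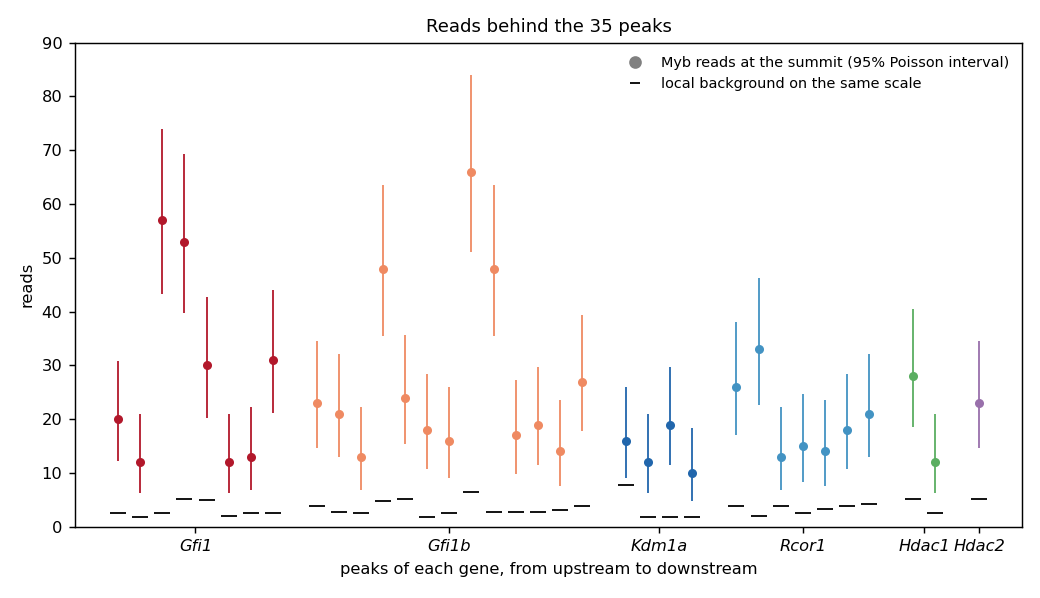
Reads at each summit (y axis) with exact 95% Poisson intervals, peaks of each gene ordered from upstream to downstream (x axis); black dashes are the local background on the scale of the Myb library. The 5 highest summits, with 48 to 66 reads, are all at Gfi1 or Gfi1b, and the background at the Kdm1a start site (7.80) is the highest of the 35.

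Kdm1a (ENSMUSG00000036940.15, chr4:136550540-136602723, minus strand), the gene of the demethylase LSD1, had the weakest promoter call. The peak 38 bp upstream of its start (chr4:136602574-136603050) held 16 reads (9.15 to 26.0) over a background of 7.80, a fold enrichment of 1.90. It carried the lowest −log10 q-value of the list, 0.0554, or q = 0.88, shared by 8 peaks, and 3 of 25793 peaks had a lower fold enrichment. Such a call is not distinguishable from background, and 1.8% of all peaks had a background as high. The highest Kdm1a peak, 96.7 kb downstream (chr4:136505843-136506381), had 19 reads (11.4 to 29.7) and a fold enrichment of 6.34, but it was in an intron of Luzp1, whose start site was the nearest, as was that of the adjacent peak at 97.2 kb (3.53, 10 reads). One peak lay within Kdm1a, 14.1 kb from the start, with a fold enrichment of 4.15 and 12 reads (6.20 to 21.0).

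Rcor1 (ENSMUSG00000037896.17, chr12:111039351-111115901, plus strand), the gene of the scaffold CoREST, had the strongest promoter peak of the 6 genes. It lay 197 bp upstream of the start (chr12:111037832-111039339) with a fold enrichment of 10.6, which ranked 939, and 33 reads (22.7 to 46.3) over a background of 1.95. In reads, it overlapped the promoter peaks of Gfi1 and Hdac1, at 30 and 28, over backgrounds of 5.07 and 5.20. A second peak 2.1 kb downstream had a fold enrichment of 2.75 and q = 0.0648. Peaks within the gene at 32.3 kb, in an intron, and at 54.8 kb had fold enrichments of 4.18 and 3.33. The latter counted as a promoter peak by distance, since it lay 2992 bp from a start of Gm48632. The other 3 lay beyond the gene, at 47.1 kb upstream beside the noncoding RNA gene 6030440G07Rik (5.25) and at 120.8 kb and 125.8 kb downstream (3.71 and 3.98), where the nearest protein-coding start was that of Traf3, which encodes a signaling adaptor.

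Hdac1 and Hdac2 encode the catalytic deacetylases of the complex, and their peaks lay only near their start sites within the window. Hdac1 (ENSMUSG00000028800.15, chr4:129516104-129542713, minus strand) had one 377 bp upstream (chr4:129542784-129543491, fold enrichment 4.51, 28 reads, 18.6 to 40.5) and one 404 bp downstream (chr4:129542168-129542442, 3.47, 12 reads, 6.20 to 21.0). Hdac2 (ENSMUSG00000019777.16, chr10:36974544-37001889, plus strand) had a single peak, 110 bp upstream (chr10:36974019-36974778, 3.74, 23 reads, 14.6 to 34.5). None was in the top quartile.

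Just inside and just outside 50 kb, Gfi1 had peaks at 42.4 kb and 51.0 kb from the gene (fold enrichment 5.46 and 5.72) and Rcor1 at 49.2 kb and 51.6 kb (3.98 and 4.65). The nearest excluded peaks were at 52.3 kb from Hdac1 (6.81) and 69.3 kb from Gfi1b (8.34), which were higher than most of the members. The next peaks were 110 kb from Kdm1a (5.46) and 136 kb from Hdac2 (5.40).

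The Myb motif was searched on both strands, up to 50 bp from the summit. It occurred at 5 of 35 summits, or 14.3% (4.81 to 30.3), beside 16.7% of all peaks. A share near that of the list is not a feature of these loci. In flanking windows of the same length, centered 500 bp to either side, it occurred in 5.71%, beside 10.5% for all peaks. The interval at the 35 summits holds both flanking shares. Of the 5 summits with the motif, 4 were at Gfi1 and Gfi1b and 1 at Rcor1. Also, 4 of the 5 were among the 9 peaks in the top quartile of fold enrichment, or 44.4% (13.7 to 78.8), beside 21.7% of the top quartile of the whole list. That interval holds the share of the list. It treats peaks as independent, although those at Gfi1b lay close together.

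By position, the Gfi1b peak at 19.6 kb held CAGTTG, the reverse complement of CAACTG, across its summit (chr2:28602358-28602363), with TGATAA 16 bp and TTATCA 24 bp from the summit, the second being a GATA match on the other strand. The peak at 23.8 kb held TTATCT on either side of the summit at 16 bp and 17 bp, with CAGTTG at 44 bp. The peak at 25.7 kb held TGTGGT, a RUNX motif, 1 bp from the summit, with TTATCT at 17 bp and CAGTTG at 21 bp. Hence 3 of 3 Gfi1b summits with a Myb motif held a GATA motif (95% exact interval from 29.2%), and none of the other 10 did. That interval treats the 3 summits as independent, although all lay in the same run. Over all the members, 3 of 5 summits with a Myb motif held a GATA motif, 60% (14.7 to 94.7), an interval that holds the share of the whole list. In the whole list, 24.0% of 4297 summits with a Myb motif and 19.4% of the rest held one. This pairing was noticed after the motifs had been counted and was not tested.

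At Gfi1, no summit paired these motifs. The Evi5 intron peak at 23.7 kb held CAGTTA 26 bp from the summit and TGATTT, the reverse complement of AAATCA, at the summit. AAATCA is the core motif recognized by Gfi1 and Gfi1b themselves. It was found at 3 of 35 summits, 8.57% (1.80 to 23.1), beside 5.39% of all peaks, and the 3 were the Gfi1 peaks at 23.7, 33.4 and 38.0 kb upstream. The highest peak, at 33.4 kb, held no Myb motif. It held CAGCTG, an E-box, 8 bp from the summit, AAATCA at 44 bp and TTATCT at 41 bp. At the Gfi1 start site, TTGCGCAA, a C/EBP motif (TTGCNNAA), lay 28 bp from the summit, and the Rcor1 promoter peak held CAACGG 4 bp from its summit.

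The other motifs had shares whose intervals held those of the whole list. GATA motifs were found at 20.0% of the 35 summits and 20.1% of all, RUNX motifs (TGTGGT or TGCGGT) at 14.3% and 12.2%, E-boxes (CAGATG or CAGCTG) at 14.3% and 14.2%, and C/EBP motifs at 11.4% and 6.16%. ETS motifs (AGGAAGT or CGGAAGT) and SP/KLF motifs (GGGCGG) were each at 1 summit, 2.86%, beside 6.40% and 7.15%. All were read on both strands, and at the Kdm1a peak at 97.2 kb a RUNX match and an E-box shared bases.

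**Figure D4:**
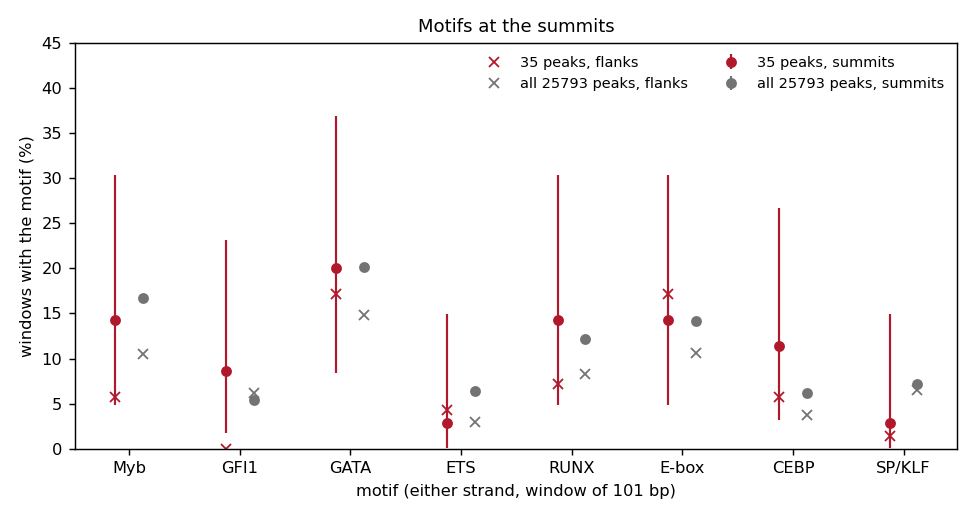
Percent of 101-bp windows with each motif (y axis) for 8 motifs (x axis); circles are summits with exact 95% binomial intervals and crosses are flanking windows, for the 35 peaks (red) and the whole list (gray). For each motif, the interval of the 35 peaks spans the share of all summits.

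For promoters, RefSeq sequences of 250 bases before to 50 after the start (GRCm38.p6) matched Gfi1, Gfi1b, Kdm1a, Rcor1 and Hdac2 by symbol, and Hdac1 was not matched. The Myb motif was in that of Rcor1 and in none of the other 4 genes, beside 28.3% of 32851 promoters. The promoter of Gfi1b is printed because it held both a GFI1 core and a GATA motif (14.0% and 29.8% of promoters held each). It lay beneath a Myb peak with no Myb motif within 50 bp of the summit or in the promoter. The rest of that peak was not searched. The promoter is given on the minus strand of the gene, chr2:28621933-28622232, with both motifs in capitals.
Gfi1b promoter: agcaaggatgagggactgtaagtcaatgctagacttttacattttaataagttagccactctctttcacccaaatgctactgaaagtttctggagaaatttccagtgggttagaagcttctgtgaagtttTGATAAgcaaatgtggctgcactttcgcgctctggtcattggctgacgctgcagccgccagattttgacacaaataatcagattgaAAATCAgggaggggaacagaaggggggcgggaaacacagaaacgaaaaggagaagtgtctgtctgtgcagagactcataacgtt

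A further 42 genes of the LSD1, CoREST, NuRD, SIN3, NCoR and SNAG corepressor network were chosen with earlier results of these data known. Their shares therefore describe the list and give no independent support. Genes with more annotated start sites also had more chances of a promoter peak. Of the 42, 33 had a promoter peak, or 78.6%, beside 39.9% of protein-coding genes. A peak within 50 kb was found for 39, or 92.9%, beside 68.7%. The strongest promoter peak of each gene had a median fold enrichment of 6.31, beside 5.25 over the 8758 protein-coding genes with one. It was in the top quartile at 18 of the 33 genes, or 54.5%, beside 37.9%. The highest was that of Cbfa2t3 (ETO2, a corepressor of hematopoietic GATA and TAL1 complexes) at 18.6 with 122 reads (101 to 146), more than at any of the 35 peaks. Among the next were Mideas (Elmsan1 in the annotation, a deacetylase complex subunit) at 11.3 with 41 reads, Gse1 at 10.8 with 69, Rbbp4 (a histone chaperone) at 8.82 with 37 and Mta2 (a NuRD subunit) at 8.54 with 32. The Rbbp4 peak was nearest to the start of Zbtb8os.

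No promoter peak was listed for Hdac3, Hdac8, Sin3b, Mta1, Rbbp7, Runx1t1, Insm1, Snai2 or Ajuba. Runx1t1, a relative of Cbfa2t3, had no peak within 50 kb either, nor had Hdac8 or Snai2, whereas Hdac3 had 13 within that distance. Absence from the list means no call at this depth, where the median peak of the whole list rested on 18 reads.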

How the data were processed

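Myb ChIP-Seq of WT Lin- bone marrow cells was analyzed from the deposited peak list. The authors used Cutadapt 1.15 for trimming, BWA 0.7.13 for alignment to mm10 and Picard for duplicates, and called peaks with MACS2 2.1.1.20160309 against IgG, keeping peaks supported by pseudo-replicates, which are random splits of 1 library. The tools and versions are from the submitters' processing notes. In the deposited list, fold enrichment is a ratio of pileup to local background, each peak has a −log10 p-value and a −log10 q-value, and the score was not used. The paper's methods give q < 0.05 for the calls from pseudo-replicates, whereas 7.24% of peaks in the list have q above 0.05. Among the members, these are the peak at the Kdm1a start site and the Rcor1 peak 2.1 kb downstream.

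The reads at each summit were recovered from the fold enrichment and −log10 p, with the Myb pileup scaled by 0.769. A whole number of reads matched in 100% of peaks (tolerance 0.0005 on −log10 p), and in 0.3% of 2000 rows after a random shift. Poisson and Clopper-Pearson intervals (95%) cover counting error only, and PCR reads are not independent molecules. The recovery was tested on simulated data. The total number of reads in each library is not known from this list.

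Summits were placed on GENCODE vM21, and coordinates are 1-based. Motifs were read from the mm10 sequence with Python 3.11.15. The members and lists were chosen with earlier results of these data known. The rule for named items took the 6 genes, their promoter peaks, their strongest peaks and every peak in the top quartile of fold enrichment. Of the wider corepressor list, it took the 6 highest promoter peaks (of which 1 is not reported here), the genes without one, Cbfa2t3 and Runx1t1. No p was computed across peaks or genes, since each kind had 1 library. Alternatives were other q filters, windows, motif spellings and assignments.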

Additional observations from a re-analysis of the deposited data

How the results depend on the processing

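The 35 peaks became 17 with −log10 q of at least 5, 15 within 3 kb, 18 within 10 kb and 22 when the nearest protein-coding start had to be that of a member. The median fold enrichment rose to 6.03 with −log10 q of at least 5. The Myb motif was at 31.4% of summits within 100 bp (30.0% of all peaks), at 48.6% with AACNG (54.3%), at 31.4% with CAACNG or TAACNG (29.7%), at 5.71% within 25 bp (8.68%) and at 29.4% of the peaks with −log10 q of at least 5 (19.6%). All 6 promoter calls held at 1 kb and 500 bp (35.8% and 31.8% of protein-coding genes), and with −log10 q of at least 5 (24.3%) those of Kdm1a and Hdac2 were lost. The Kdm1a call, with q = 0.88, also fails a limit of q at most 0.05. No paired analysis was possible because the result comes from 1 library and no test. The depth of 10 to 66 reads per summit limits what can be told apart.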
